A study of Mus musculus with 5 samples.

Results

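The 38 genes described here encode the enzymes with which hepatocytes oxidize fatty acids and a set of known targets of PPAR-alpha, the nuclear receptor that drives them. They were selected by gene symbol, and all 38 were present among the 32285 genes counted in the single-nucleus RNA-seq (snRNA-seq) matrices. By role, 2 are regulators, 3 serve uptake and activation of fatty acids, 16 mitochondrial beta-oxidation and its electron transfer, and 5 peroxisomal oxidation. A further 3 are acyl-CoA thioesterases, 6 are Cyp4a omega-hydroxylases, 1 is ketogenic, and 2 are other PPAR-alpha targets. Liver nuclei came from wild-type male C57BL6/J mice fed either regular chow (3 libraries) or a MASH diet (2 libraries, labelled as an AMYLIN liver NASH diet). Of the calories of the MASH diet 40% came from fat and 20% from fructose, cholesterol made up 2%, and feeding lasted 5 months from an age of 10 to 12 weeks. MASH, metabolic dysfunction-associated steatohepatitis, is fatty liver with injury, inflammation and fibrosis. Whether a library was 1 mouse or a pool was not given in the sources used here, so p-values measure the spread between libraries, which may be technical.

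Fatty acids enter the hepatocyte, are activated to acyl-CoA and are carried into mitochondria by the carnitine shuttle, where beta-oxidation shortens them and feeds ketogenesis. Peroxisomes shorten very long chains, and the Cyp4a cytochromes hydroxylate the omega end of the chain in the endoplasmic reticulum as a further route. PPAR-alpha, activated by fatty acids and partnered by RXR at direct repeats in DNA, is the main transcriptional inducer of all these routes in the fasted liver, and the Cyp4a genes are among its most responsive targets in the mouse.

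Nuclei with at least 2000 UMIs (unique molecular identifiers, each counting 1 captured RNA molecule) and at least 1 UMI of Hnf4a, a hepatocyte transcription factor, were taken as hepatocyte nuclei. They numbered 4222, 6744 and 7006 in chow 1, chow 2 and chow 3, and 2684 and 2611 in MASH 1 and MASH 2, with 15125194 to 39316007 UMIs per library. All 8 hepatocyte markers, albumin among them, were detected in every library, but Hnf4a is 1 of them and was required of every nucleus. CPM gives a gene's UMIs as a share of all UMIs in the nuclei counted, here the hepatocyte nuclei of the library. The 8 markers summed to 12352 to 18192 CPM in chow and to 7718 and 6600 CPM in MASH. Of the 8, 7 were lower in both MASH libraries than in any chow library. Markers of other lineages were present at low level. Their sums were higher in both MASH libraries than in any chow library for stellate cells, macrophages, cholangiocytes, T and NK cells and B cells, whereas the endothelial sums overlapped. The 6 stellate markers summed to 64.5 to 96.7 CPM in chow and 182 and 228 CPM in MASH, the 6 macrophage markers to 32.3 to 45.1 and 187 and 90.0 CPM, and the 6 endothelial markers to 63.4 to 221 and 162 and 208 CPM. No marker of these lists was at 0 in every library, and nuclei with UMIs of 2 markers of another lineage, which can be doublets, made up 6.42% to 13.5% of hepatocyte nuclei in chow and 25.0% and 32.2% in MASH. The 6 markers of disease-associated hepatocytes summed to 131 to 276 CPM in chow and 888 and 789 CPM in MASH, and the part of these lists in the results below was not tested.

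One chow library stood apart from the other 2 in these genes. Chow 3 held the lowest chow level of 31 of the 38 members, against 35.7% of all 15414 genes tested. Its level was below the mean of chow 1 and chow 2 by a median of 0.89 on the log2 scale over the members, whereas the same median over all genes was -0.03. Members more than 2-fold lower in chow 3 numbered 16 of 38 (42.1%, against 8.56% of all genes). Chow 1 and chow 2 differed from each other by a median of 0.35 on the log2 scale, and MASH 1 and MASH 2 by 0.21. The acute-phase gene Saa1, which the liver induces in inflammation, moved the other way, with 700 and 129 CPM in chow 1 and chow 2, 8865 CPM in chow 3, and 92.2 and 85.6 CPM in MASH. Lcn2, another acute-phase gene, read 4.56, 7.17 and 486 CPM in chow and 41.2 and 32.4 CPM in MASH, so that MASH lay above chow 1 and chow 2. Igfbp1, a fasting-responsive binding protein, read 175, 150 and 1183 CPM in chow and 58.9 and 88.4 CPM in MASH. Dbp, a clock-controlled transcription factor, read 101, 73.4 and 11.4 CPM in chow and 124 and 109 CPM in MASH. Chow 3 was thus the highest library for Saa1, Lcn2 and Igfbp1 and the lowest for Dbp, and these 4 genes were chosen after their values were seen. The part of these genes in the low level of the members in chow 3 was not tested, and the counts of called members below are given with and without that library.

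**Figure D1:**
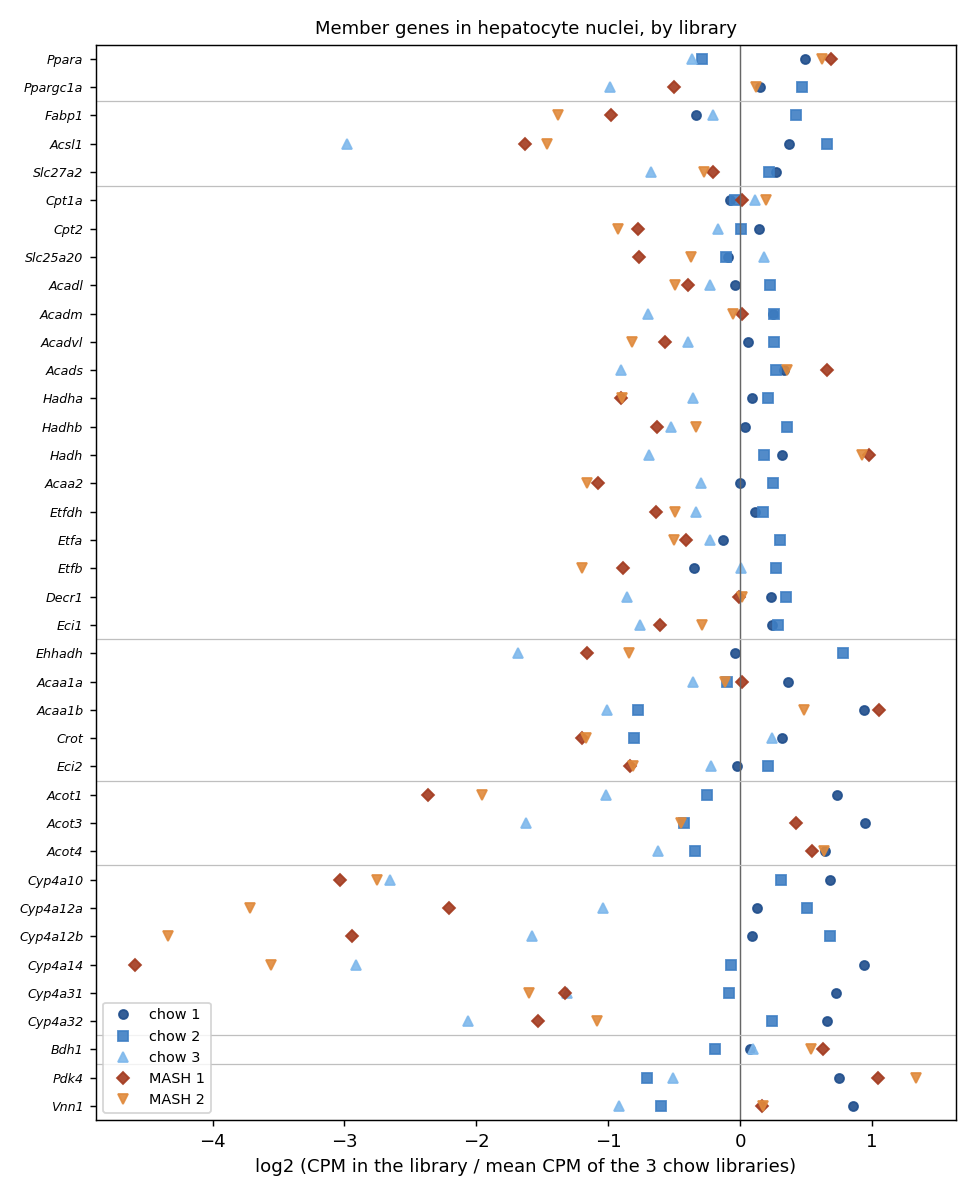
Level of each of the 38 member genes in hepatocyte nuclei of the 5 libraries, as log2 of scaled CPM over the mean of the 3 chow libraries, with rows grouped by role from the regulators at the top to other PPAR-alpha targets at the bottom. Chow 3 (light triangles) lies left of the other chow libraries for most members, and the Cyp4a rows reach furthest left in MASH.

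To ask how the MASH diet changed this program, UMIs were summed over the hepatocyte nuclei of each library, scaled by TMM (a factor that evens out library composition), and compared with edgeR's quasi-likelihood test, called at a Benjamini-Hochberg adjusted p under 0.05 over all 15414 genes. All levels below are CPM on that scale, so they are shares of the nuclear RNA of hepatocytes and not amounts per nucleus. All 38 members passed the filter on low counts. The test called 7 members (18.4%), all lower in MASH: Cyp4a12a, Cyp4a12b, Cyp4a14, Acot1, Acaa2, Etfb and Cpt2. Of all genes tested 13.7% were called, 4.48% lower and 9.26% higher. The log2 fold change was below 0 in 27 of 38 members, with a median of -0.52 over the members and 0.00 over all genes. In 18 members the highest MASH value was under the lowest chow value (24.2% of all genes), and in 5 the lowest MASH value was over the highest chow value (30.1% of all genes), namely Ppara, Acads, Hadh, Bdh1 and Pdk4.

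Without chow 3 the test called 17 members, all lower and with the former 7 among them, where 7.05% of all genes were called lower. Chow 3 was singled out as the lowest chow library in most members. More lower calls without it, here and below, are therefore no further support. Without chow 1 edgeR called 10 members, 5 lower (8.70% of all genes) and 5 higher (13.0% of all genes). The 5 higher were Acaa1b, Acot4, Pdk4, Ppara and Vnn1. Without chow 2 edgeR called 0 members (5.67% of all genes), with 13 at an unadjusted p under 0.05 (30.6% of all genes). Without MASH 1 it called 1, Cyp4a12a (1.74% of all genes), with 8 at an unadjusted p under 0.05 (16.7%). Without MASH 2 it called 0 (1.36%), with 5 at an unadjusted p under 0.05 (16.3%). Both are fits that take the lone MASH library to vary like the chow libraries. Without the nuclei that held 2 markers of another lineage, 5 of the 7 were still called, all but Cyp4a14 and Cpt2 (12.9% of all genes called), whose log2 fold changes there were -3.92 (adjusted p = 0.056) and -0.80 (adjusted p = 0.063). The count also moved with the method, to 13 members with DESeq2 (23.3% of all genes), 11 with no filter on low counts (15.3%), 4 with a stricter filter (11.5%), 14 with Storey q-values (26.4%), 11 with the replicate number as a block (12.6%) and 2 with no scaling factor (13.2%). In the block fit chow 3 has a number of its own, so it does not inform the diet difference there. Set against chow 3 alone, both MASH libraries were lower in 18 members and higher in 18. Set against chow 1 and chow 2, both were lower in 27 and higher in 6. Lying beyond 2 libraries is a stricter condition than lying beyond 1. The shares of all genes are not given for these counts, so they are a description of the members only.

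The omega-hydroxylases carried the largest differences. The 6 Cyp4a genes lie side by side on chromosome 4 (GRCm38 chr4:115299046-115621602), and the fold change of each was below 0 under every alternative fit. Cyp4a14, a fatty acid omega-hydroxylase and a classical PPAR-alpha target, read 1277, 635 and 88.5 CPM in chow and 27.7 and 56.6 CPM in MASH. Both MASH values lay below every chow value, and chow 3 lay far nearer to MASH than to the other chow libraries. Its log2 fold change was -3.98 ± 1.05 (SE, adjusted p = 0.044), and -4.56 ± 0.53 without chow 3.

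Cyp4a12a and Cyp4a12b encode the omega-hydroxylases known to predominate in male mice. Cyp4a12a read 88.1, 115 and 39.3 CPM in chow and 17.5 and 6.15 CPM in MASH. Cyp4a12b read 44.4, 66.8 and 13.9 CPM in chow and 5.43 and 2.07 CPM in MASH. In both genes MASH lay below all chow libraries, chow 3 included. The log2 fold changes were -2.78 ± 0.60 (adjusted p = 0.025) for Cyp4a12a and -3.49 ± 0.74 (adjusted p = 0.024) for Cyp4a12b. Of the 100-base windows in the transcripts of Cyp4a12a, 35.8% occur exactly in another Cyp4a member, most often Cyp4a12b. Reads that match both genes are not counted, so both levels may be too low.

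Cyp4a10, the other strongly inducible gene of the cluster, read 562, 434 and 55.5 CPM in chow and 42.9 and 52.0 CPM in MASH. The ranges did not overlap, but chow 3 and MASH were almost level, and the log2 fold change of -2.88 ± 0.86 was not called (adjusted p = 0.062). Cyp4a31 read 18.9, 10.7 and 4.58 CPM in chow and 4.53 and 3.75 CPM in MASH (log2 fold change -1.46 ± 0.57, adjusted p = 0.12). Cyp4a32 read 14.7, 11.0 and 2.22 CPM in chow and 3.22 and 4.37 CPM in MASH (log2 fold change -1.29 ± 0.71, adjusted p = 0.24). In Cyp4a32 the chow 3 library was the lowest of all 5. All 6 Cyp4a genes were called lower when chow 3 was left out. Chow 3 was the lowest chow library in all 6, so these calls are no further support.

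**Figure D2:**
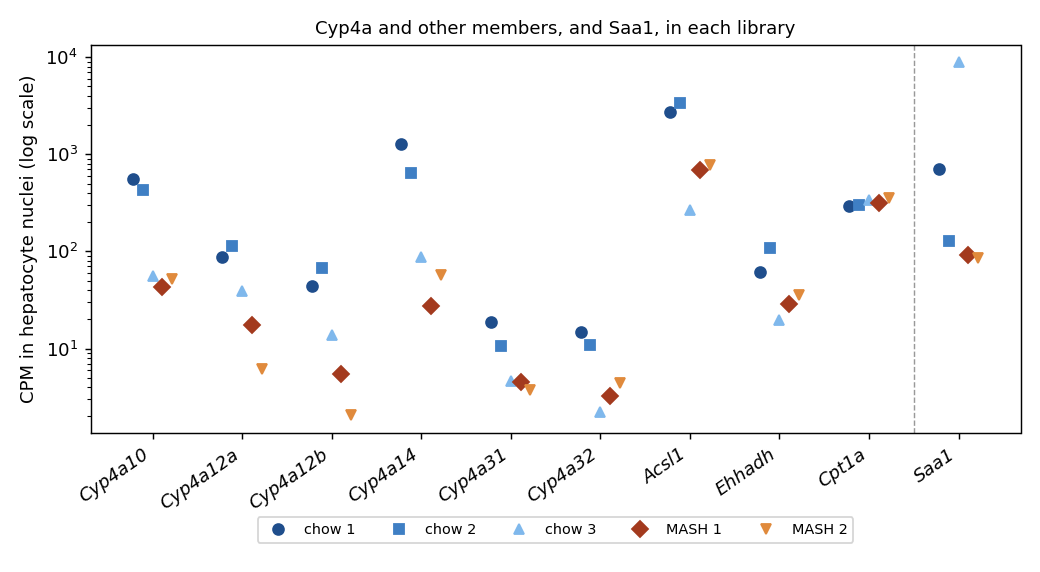
Scaled CPM (log axis) in hepatocyte nuclei of each library for the 6 Cyp4a genes, Acsl1, Ehhadh and Cpt1a, and, right of the dashed line, for the acute-phase gene Saa1, which is no member. In Cyp4a10, Cyp4a14, Cyp4a31 and Cyp4a32 chow 3 sits with or near MASH, in Cyp4a12a and Cyp4a12b it lies between the other chow libraries and MASH, Cpt1a spans 295 to 356 CPM, and Saa1 peaks in chow 3 at 8865 CPM.

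In the regulators no difference was called. Ppara, the receptor itself, read 345, 201 and 191 CPM in chow and 396 and 378 CPM in MASH. MASH lay above chow without overlap, with chow 1 close behind, and the log2 fold change was 0.66 ± 0.34 (adjusted p = 0.21). Ppargc1a, the coactivator PGC-1alpha, read 59.3, 74.0 and 27.0 CPM in chow and 37.7 and 58.1 CPM in MASH. These ranges overlapped, with a log2 fold change of -0.16 ± 0.42 (adjusted p = 0.82).

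Among the uptake and activation genes, Fabp1, the cytosolic fatty acid carrier of the liver, read 875, 1484 and 958 CPM in chow and 559 and 424 CPM in MASH. MASH lay below chow without overlap, and the log2 fold change of -1.17 ± 0.39 was not called (adjusted p = 0.081). Acsl1, the main long-chain acyl-CoA synthetase, read 2734, 3340 and 268 CPM in chow and 684 and 767 CPM in MASH. The chow libraries spanned a 12.5-fold range that enclosed both MASH values, and the log2 fold change was -1.54 ± 0.90 (adjusted p = 0.26), or -2.13 ± 0.33 (adjusted p = 0.012) without chow 3. Slc27a2, a very long chain acyl-CoA synthetase, overlapped between the diets (log2 fold change -0.24 ± 0.39).

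In mitochondrial beta-oxidation, 12 of 16 members had a log2 fold change below 0 (11 to 13 under the alternative fits), with a median of -0.47, and 3 were called. Acaa2, the thiolase that releases acetyl-CoA at the end of each cycle, read 189, 226 and 154 CPM in chow and 89.7 and 84.8 CPM in MASH (log2 fold change -1.12 ± 0.27, adjusted p = 0.035). Etfb, a subunit of the flavoprotein that takes electrons from the acyl-CoA dehydrogenases, read 71.8, 110 and 91.9 CPM in chow and 49.5 and 39.7 CPM in MASH (log2 fold change -1.03 ± 0.27, adjusted p = 0.045). Cpt2, the inner membrane carnitine palmitoyltransferase, read 46.6, 42.5 and 37.5 CPM in chow and 24.7 and 22.3 CPM in MASH (log2 fold change -0.85 ± 0.23, adjusted p = 0.049). In these 3 genes the diets did not overlap, and the chow libraries spanned no more than a 1.54-fold range.

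Cpt1a, which controls entry of fatty acids into mitochondria, read 295, 303 and 336 CPM in chow and 314 and 356 CPM in MASH. Its chow libraries were the most even of the 16, spanning a 1.14-fold range that MASH overlapped, and the log2 fold change was 0.11 ± 0.26 (adjusted p = 0.80). Hadha, the alpha subunit of the mitochondrial trifunctional protein, read 277, 301 and 204 CPM in chow and 139 and 140 CPM in MASH. The diets did not overlap, yet the log2 fold change of -0.90 ± 0.28 missed the threshold (adjusted p = 0.071), and it was called without chow 3 (adjusted p = 0.021). Hadh, the short-chain 3-hydroxyacyl-CoA dehydrogenase, went the other way with 69.7, 63.6 and 34.8 CPM in chow and 110 and 107 CPM in MASH (log2 fold change 0.95 ± 0.32, adjusted p = 0.083). Acads, the short-chain acyl-CoA dehydrogenase, also had both MASH libraries above chow (log2 fold change 0.51 ± 0.37, adjusted p = 0.37). The remaining members of the group, Slc25a20, Acadl, Acadm, Acadvl, Hadhb, Etfdh, Etfa, Decr1 and Eci1, ranged from -0.69 in Acadvl to 0.00 in Decr1, and none was called.

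**Figure D3:**
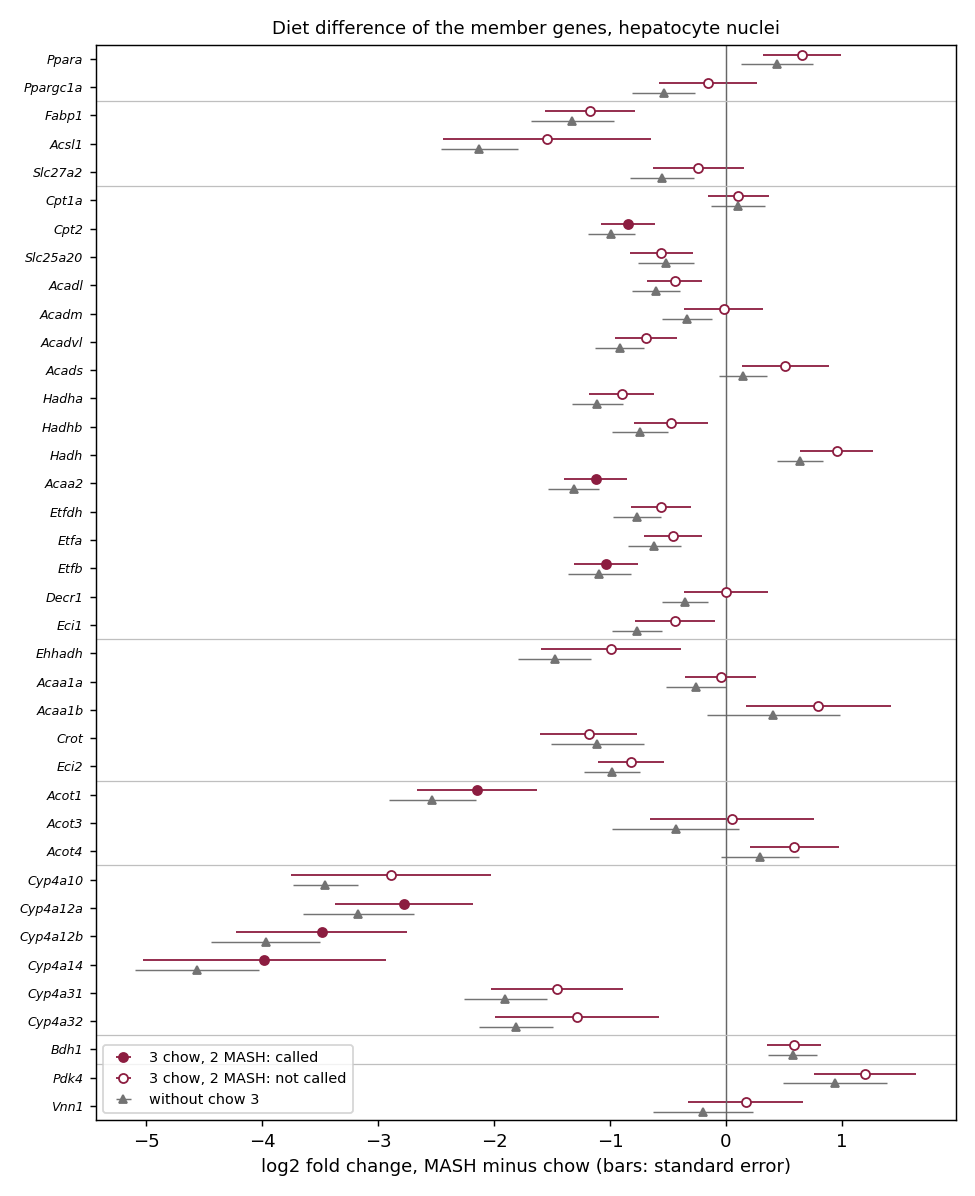
Log2 fold change (MASH minus chow) of each member in hepatocyte nuclei with its standard error, from all 5 libraries (circles, filled where called) and without chow 3 (triangles). The 7 filled circles are all left of 0, and leaving out chow 3 narrows most error bars and moves most members further left.

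No peroxisomal member was called, with log2 fold changes from -1.18 in Crot to 0.80 in Acaa1b. Ehhadh, the peroxisomal bifunctional enzyme, read 61.9, 110 and 19.9 CPM in chow and 28.6 and 35.7 CPM in MASH. Chow 3 lay below both MASH libraries, and the log2 fold change was -0.99 ± 0.60 (adjusted p = 0.29). Crot, which makes carnitine esters of the shortened chains, read 1103, 505 and 1042 CPM in chow and 385 and 393 CPM in MASH. Here chow 2 and not chow 3 was the lowest chow library, and the log2 fold change of -1.18 ± 0.42 was not called (adjusted p = 0.096). Acaa1b, a peroxisomal thiolase, read 2715, 826 and 702 CPM in chow and 2938 and 1978 CPM in MASH, with chow 1 inside the MASH range (log2 fold change 0.80 ± 0.63, adjusted p = 0.40). Its paralog Acaa1a and the isomerase Eci2 had log2 fold changes of -0.05 and -0.82.

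Acot1, Acot4 and Acot3, which hydrolyse acyl-CoA back to free acids, are neighbours on chromosome 12 (GRCm38 chr12:84009490-84060402). Acot1, the cytosolic thioesterase, read 62.4, 31.6 and 18.6 CPM in chow and 7.27 and 9.66 CPM in MASH. MASH lay below every chow library, and the log2 fold change was -2.15 ± 0.51 (adjusted p = 0.035). Its peroxisomal neighbours did not follow it, with log2 fold changes of 0.05 ± 0.71 for Acot3 and 0.59 ± 0.38 for Acot4, neither called.

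Bdh1, which makes beta-hydroxybutyrate in the last step of ketogenesis, read 98.8, 82.5 and 100.5 CPM in chow and 145 and 136 CPM in MASH. MASH lay above chow without overlap, but the log2 fold change of 0.59 ± 0.23 was not called (adjusted p = 0.12). Pdk4, the kinase that closes pyruvate dehydrogenase when fat is burned, read 18.6, 6.75 and 7.74 CPM in chow and 22.8 and 27.8 CPM in MASH (log2 fold change 1.20 ± 0.44, adjusted p = 0.10). Vnn1, the pantetheinase, read 92.8, 33.9 and 27.2 CPM in chow and 57.6 and 57.7 CPM in MASH, inside the chow range (log2 fold change 0.17 ± 0.49, adjusted p = 0.84).

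Genes of the pathway outside the members moved in both directions. Of 64 such genes, 63 were tested, 4 were called lower and 7 higher (17.5%, against 13.7% of all genes), with a median log2 fold change of -0.23. Nudt7, a peroxisomal coenzyme A diphosphatase, fell from 983, 1268 and 638 CPM to 128 and 117 CPM (log2 fold change -2.98, adjusted p = 0.007). Angptl4, a secreted lipase inhibitor, had a log2 fold change of -1.64, the bile acid-CoA ligase Slc27a5 of -1.23 and the medium-chain acyl-CoA synthetase Acsm1 of -1.01, all called. Fgf21, a hormone that PPAR-alpha induces, rose from 4.45, 2.74 and 1.35 CPM to 50.3 and 75.3 CPM (log2 fold change 4.47, adjusted p = 0.004). Also called higher were Acad12 (2.38), the peroxisomal transporter Abcd2 (2.36), the uncoupling protein Ucp2 (2.00), the fatty acid translocase Cd36 (1.59) and the mitochondrial thioesterase Acot2 (1.54). Of 19 regulators outside the members, 1 was called lower, the Mediator subunit Med1 (-1.12, adjusted p = 0.035), and 1 higher, the orphan receptor Esrra.

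The sources of these UMIs bear on what a level means in nuclei. The members were also counted in nuclei of other lineages. Their summed level there was 47.0% to 78.4% of that in hepatocyte nuclei of the same library. Median depths there were 941 to 1430 UMIs per nucleus, against 3872 to 5475 in hepatocyte nuclei. In this comparison CPM were not scaled. In 5 members, Fabp1, Etfa, Cyp4a12a, Acot1 and Pdk4, at least 1 of the endothelial, macrophage and stellate groups reached the hepatocyte level in 4 or 5 of the 5 libraries. In Acot1 the macrophage group alone did so. In Pdk4 the endothelial group did so in 4 libraries, the stellate group in 1 and the macrophage group in 0. In Acaa2 the endothelial group did so in 2 libraries and the macrophage and stellate groups in 3 each. Cyp4a12a read 96.3, 104 and 29.7 CPM in hepatocyte nuclei of chow and 95.8, 123 and 59.4 CPM in endothelial nuclei, and Etfb read 78.5, 100.3 and 69.5 CPM against 78.3, 127 and 93.1 CPM. In MASH, Cyp4a12a read 19.4 and 7.37 CPM in hepatocyte nuclei and 25.0 and 3.78 CPM in endothelial nuclei. The level of Fabp1, Etfa, Cyp4a12a, Etfb and Acaa2 in hepatocyte nuclei therefore could not be told from free RNA. Whether the other lineages express these genes themselves was not tested. Among the other called members, Cpt2 reached the hepatocyte level in 1 library in endothelial, 1 in macrophage and 2 in stellate nuclei. Cyp4a12b did so in 2 libraries in endothelial, 1 in macrophage and 0 in stellate nuclei. The part of free RNA in Cpt2 and Cyp4a12b was not tested. For Acot1 and Pdk4, high in 1 group more than in the others, the source of the UMIs in that group was not tested. Cyp4a14 read 1396, 577 and 66.9 CPM in hepatocyte nuclei and 498, 208 and 17.8 CPM in endothelial nuclei of chow. Its level relative to hepatocyte nuclei was 0.545, 0.599 and 0.899 in macrophage nuclei of chow. In stellate nuclei of chow it was 0.369, 0.521 and 0.837. In MASH it was 0.658 and 0.724 in endothelial, 0.861 and 0.486 in macrophage and 0.786 and 0.545 in stellate nuclei. The part of free RNA in Cyp4a14 was not tested. In 17 members, Ppara, Acsl1, Cpt1a, Hadha, Cyp4a14 and Vnn1 among them, no other lineage reached the hepatocyte level in any library.

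Liver lobules divide work between the pericentral zone around the central vein and the periportal zone, and beta-oxidation and its regulators are known to be zoned. Hepatocyte nuclei of each library were ranked by 12 pericentral and 12 periportal markers and split into 3 bins of equal size (pericentral, middle and periportal). The pericentral markers were higher in the pericentral bin by a median log2 ratio of 2.59 to 3.97 in chow and of 3.63 and 3.11 in MASH, and the periportal markers were lower there by log2 ratios of -3.48 to -2.29 in chow and of -2.39 and -2.17 in MASH. Nuclei near a boundary made up 14.6% to 17.9% of a library.

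The members as a whole lay on the pericentral side. Their level was higher in the pericentral than in the periportal bin in all 5 libraries for 21 of 38 members (55.3%, against 15.5% of all 14136 genes tested), and higher in the periportal bin in all 5 for only 1, Etfa (13.7% of all genes). Position within a diet is given as a description with no test. The steepest gradients in chow were those of Cyp4a14, with log2 pericentral over periportal ratios of 3.30, 2.26 and 3.73 in chow against 1.78 and 2.39 in MASH, and of Vnn1, with 3.46, 2.23 and 3.04 in chow and 0.72 and 0.87 in MASH. Cyp4a10 stayed pericentral in every library, with ratios of 2.02, 1.46 and 2.04 in chow and 2.00 and 1.31 in MASH. Chow 3, low in these genes, kept their pericentral slope.

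Whether the diet difference itself differed between the zones was tested by the interaction of diet and zone with the library as a block. It was called for 7 of 38 members (18.4%), against 3.18% of all genes. In these 7 members the log2 ratio in both MASH libraries lay outside the range of the 3 chow libraries. The test that picked them used these same ratios, so that separation is no further support. Without chow 3 the interaction was called for 6 members (2.89% of all genes), without chow 1 for 8 (6.64%) and without chow 2 for 4 (1.71%). Without MASH 1 or MASH 2 edgeR called 0 members (0.21% and 0.123% of all genes), with 8 and 9 at an unadjusted p under 0.05 (11.6% and 10.4%). With DESeq2 on all libraries 6 members were called (1.95%), and with nuclei ranked by Cyp2e1 and Cyp2f2 alone 3 were (1.2%).

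In 3 of these members the pericentral to periportal ratio was lower in MASH. With levels scaled over both bins together, Vnn1 read 178, 55.3 and 52.7 CPM in the pericentral and 16.1, 11.7 and 6.31 CPM in the periportal bin of chow. In MASH it read 74.6 and 71.4 CPM against 45.3 and 39.1 CPM. Its pericentral levels thus overlapped between the diets while its periportal levels did not, and the interaction was -2.16 ± 0.26 on the log2 scale (adjusted p = 0.002). Acaa1b had log2 ratios of 2.14, 1.44 and 2.27 in chow and 0.80 and 0.74 in MASH (interaction -1.18 ± 0.21, adjusted p = 0.014). Its diet difference within a bin was 0.52 in the pericentral and 1.77 in the periportal bin on the log2 scale, neither called. Its paralog Acaa1a had ratios of 0.90, 0.91 and 1.27 in chow and 0.42 and 0.40 in MASH (interaction -0.61 ± 0.13, adjusted p = 0.032). Of the 100-base windows in the transcripts of Acaa1b, 22.6% occur exactly in Acaa1a. Reads that match both genes are not counted, so both levels may be too low.

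In the other 4 the pericentral to periportal ratio was higher in MASH. Acot4 had log2 ratios of 0.32, -0.28 and -0.29 in chow and 1.13 and 1.19 in MASH (interaction 1.23 ± 0.17, adjusted p = 0.005). Acot3, at 0.80 to 8.97 CPM the lowest of them, had ratios of 0.21, -1.51 and -0.94 in chow and 2.22 and 1.86 in MASH (interaction 2.62 ± 0.57, adjusted p = 0.033). Ppargc1a was periportal in chow, with ratios of -1.23, -1.10 and -0.32, and slightly pericentral in MASH, with 0.14 and 0.19 (interaction 1.10 ± 0.22, adjusted p = 0.026). Hadhb, the beta subunit of the trifunctional protein, was close to even in chow (0.01, -0.21 and -0.06) and pericentral in MASH (0.38 and 0.44), with an interaction of 0.50 ± 0.11 (adjusted p = 0.037). Its diet difference was below 0 in both bins, at -0.22 in the pericentral and -0.72 in the periportal bin on the log2 scale, neither called. The diet by zone difference of its partner Hadha was of similar size but not called (0.44 ± 0.12, adjusted p = 0.072).

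**Figure D4:**
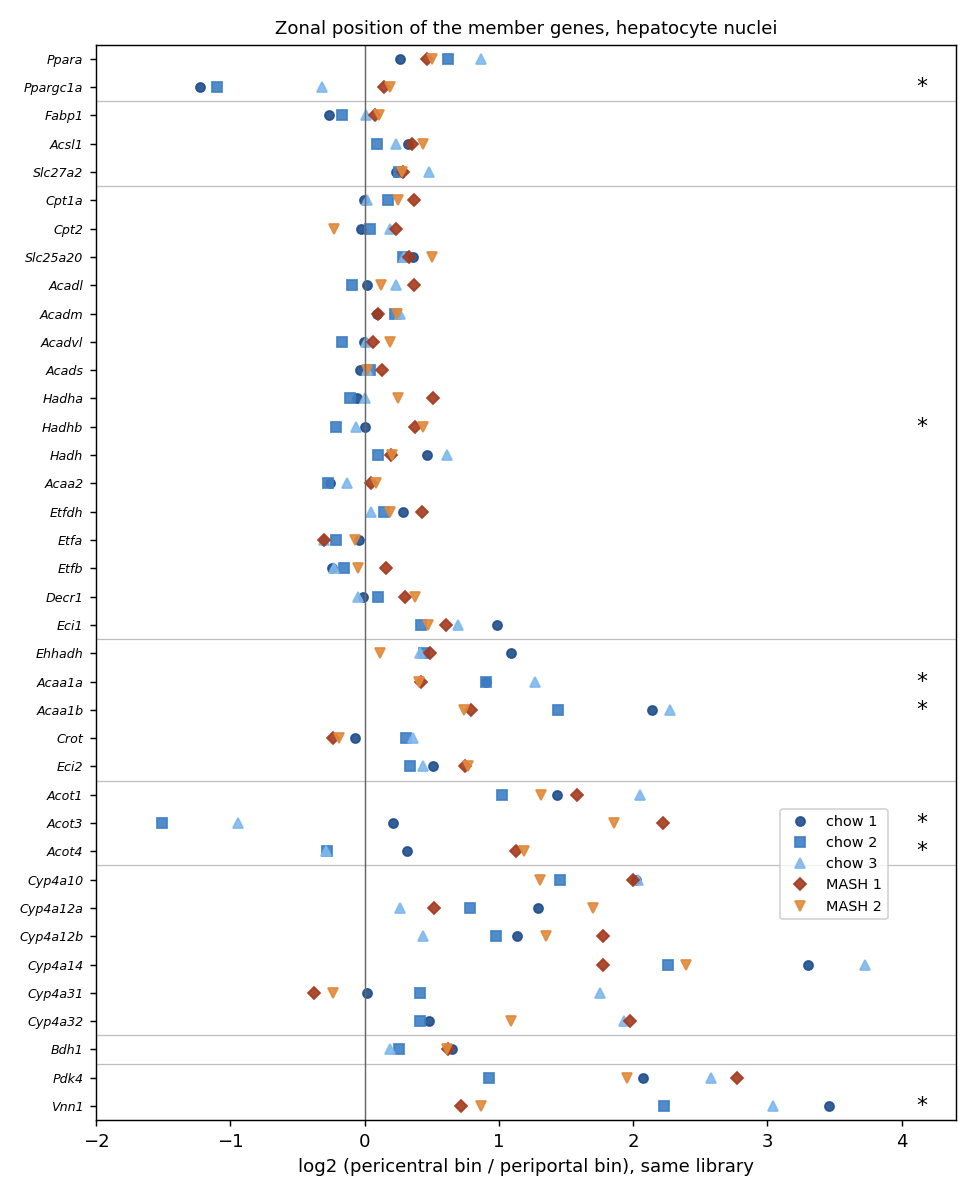
Log2 ratio of the pericentral to the periportal bin for each member in each of the 5 libraries, with an asterisk where the diet by zone interaction was called. Most points lie right of 0, and MASH moves left of chow for Vnn1, Acaa1a and Acaa1b and right of it for Acot3, Acot4, Ppargc1a and Hadhb.

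Within single bins the diet test called 2 members in the pericentral bin (both lower, against 3.26% of all genes lower), 4 in the middle bin (all lower, against 3.12%) and 5 in the periportal bin (4 lower, against 4.51%, and 1 higher, against 9.31%). Cyp4a12a and Cyp4a12b were called lower in all 3 bins. Acaa2 was called lower in the middle and periportal bins, with log2 fold changes of -1.13 and -1.22, Acot1 in the middle bin (-2.72) and Etfb in the periportal bin (-1.11). Vnn1 was the only member called higher, in the periportal bin (log2 fold change 1.94 ± 0.38, adjusted p = 0.021). Cyp4a14 was not called in any bin (adjusted p = 0.059, 0.062 and 0.088), with log2 fold changes of -3.92, -4.07 and -3.16. Without chow 3 the test called 11 members in the pericentral bin (all lower, against 5.38% of all genes), 14 in the middle bin (all lower, against 4.81%) and 19 in the periportal bin (17 lower, against 7.05%, and 2 higher, against 11.1%). Without chow 1 it called 8, 11 and 7 members in these bins, of which 4, 6 and 3 were higher. Of all genes 9.08%, 12.3% and 13.8% were called higher in that fit, and 7.08%, 8.09% and 8.70% lower. Without MASH 1 edgeR called 0 in each bin (0.669%, 0.75% and 0.326% of all genes), with 9, 6 and 6 members at an unadjusted p under 0.05 (14.2%, 13.9% and 16.4%). Without MASH 2 it called 0 in each bin (0.482%, 0.602% and 0.101%), with 5, 5 and 9 at an unadjusted p under 0.05 (13.6%, 14.4% and 15.3%). With DESeq2, no filter or the replicate number as a block the pericentral count became 12, 10 and 8 (16.5%, 11.5% and 7.19% of all genes), the middle count 11, 8 and 10 (18.1%, 11% and 9.1%) and the periportal count 13, 12 and 20 (20.6%, 15.5% and 18.6%).

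PPAR-alpha is known to bind direct repeats of the motif AGGTCA 1 base apart, so the 250 bases upstream of each start site were searched for AGGTCANAGGTCA on both strands with up to 2 mismatches (RefSeq promoters, GRCm38.p6). Promoters were found for 30 of the 38 members, and 3 of these members had a match. The 8 not searched were Acaa2, Decr1, Vnn1, Cyp4a10, Cyp4a12a, Cyp4a12b, Cyp4a14 and Cyp4a31, among them 4 of the 7 members called for the diet. Of all 32851 promoters searched, 3.24% had one, and 9.09% of the 33 member promoters did. With 1 mismatch, Fabp1 alone matched among the members, against 0.484% of all promoters. Its upstream sequence (chr6:71199629-71199878, plus strand) is shown because it holds the closest match, with the matched bases, which read as the repeat on the opposite strand 67 to 55 bases before the start, in capitals.
Fabp1: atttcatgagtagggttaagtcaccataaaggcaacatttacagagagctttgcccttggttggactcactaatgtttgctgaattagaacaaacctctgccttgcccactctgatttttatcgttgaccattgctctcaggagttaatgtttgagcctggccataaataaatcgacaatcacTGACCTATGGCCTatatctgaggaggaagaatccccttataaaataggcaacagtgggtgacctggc
The other matches, with 2 mismatches each, were in the promoters of Etfa and Acot4.
Etfa: TTACCTTTGCCCT
Acot4: TGACCTTTGGCCG
Of the called members with a promoter in the table, Cpt2, Etfb and Acot1 had no match in this window, which says only that these letters are not there.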

How the data were processed

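Nuclear RNA of mouse liver was measured in 5 libraries (3 chow, 2 MASH). The authors counted reads with Cell Ranger 8.0.1 on the 10x mouse transcriptome of GRCm38 and left out intronic reads, so the deposited values are unnormalized UMI counts of each gene in each filtered barcode. Reads that map to more than 1 gene are not counted, which lowers paralogs such as the Cyp4a genes. No doublets were removed for the main results. Between 23 and 48 barcodes were shared by each pair of libraries (0.254% to 0.399% of the smaller).

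UMIs were summed per library over hepatocyte nuclei and over 3 bins by zone score, and fitted in edgeR 4.0.16 (R 4.3.3) with TMM scaling, filterByExpr and quasi-likelihood tests. The interaction fit held zone, zone by diet and the library as a block. On data simulated for the diet comparison in all hepatocyte nuclei (15414 genes), 45.5% of 4-fold and 80.7% of 8-fold changes were recovered but 4.94% of 2-fold changes, with 4 of 79 calls false. For the interaction (14136 genes), 75% of 2-fold changes were recovered and 22 of 189 calls were false, more than the adjusted p threshold of 0.05 allows for. Alternatives were DESeq2 1.42.0, other scalings, filters, nuclei, zone scores, a replicate block and leaving out each library. Values in every library are given for called members, 10 fixed members and the 6 others with the largest fold change, and outside the members for the called genes with the 6 largest fold changes in each direction plus Fgf21, Cd36 and 2 genes that are not reported here. Hnf4a, which selected the nuclei, was left out of the regulators. Members, lists and tests were chosen with earlier results of these data known.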

Additional observations from a re-analysis of the deposited data

Results flagged for a closer look

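The 7 members named here were noted because the diet difference in their level was not the same in the pericentral and periportal bins, by edgeR's interaction of diet and zone over all 14136 genes. The value is the log2 diet difference (MASH minus chow) in the pericentral bin minus that in the periportal bin. It was -2.16 for Vnn1, -1.18 for Acaa1b and -0.61 for Acaa1a, whose pericentral bias was smaller in MASH in 2 of 2 libraries than in any of the 3 chow libraries. It was 2.62 for Acot3, 1.23 for Acot4, 1.10 for Ppargc1a and 0.50 for Hadhb, whose pericentral to periportal ratio was higher in 2 of 2 MASH libraries than in any of the 3 chow libraries. The test that picked these 7 used the same ratios, so their separation by diet is no further support. On data simulated for this interaction, 22 of 189 calls were false. Over the 11 alternatives the value kept its sign for all 7, from -2.52 to -1.83 for Vnn1, -1.44 to -1.03 for Acaa1b, -0.71 to -0.50 for Acaa1a, 2.19 to 3.58 for Acot3, 1.04 to 1.41 for Acot4, 0.92 to 1.33 for Ppargc1a and 0.32 to 0.56 for Hadhb. Acaa1b, Acot4 and Vnn1 were each called in 9 of the 11, all but the fits without MASH 1 or MASH 2, Ppargc1a in 7, Acaa1a in 6, and Hadhb and Acot3 in 5 each. With nuclei ranked by Cyp2e1 and Cyp2f2 alone, Vnn1, Acaa1b and Acot4 were the members called.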

How the results depend on the processing

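The direction of the 7 called members held under all 20 alternative fits of the diet comparison, whereas the number of members called did not. It was 7 as reported, 2 with no scaling factor, 13 with DESeq2, 11 with no filter on low counts, 4 with a stricter filter and 14 with Storey q-values. With the replicate number as a replicate block it was 11, 5 of them among the 7. Leaving out 1 library at a time gave 0 to 17. Without chow 1 the 10 called were 5 lower and 5 higher (8.70% and 13.0% of all genes). Without a scaling factor the median log2 fold change of all genes was 0.33 in place of 0.00, and 1706 genes were called higher and 334 lower, against 1427 and 690. The 2 members called there, Cyp4a12a and Cyp4a12b, were among the 7. Same-numbered libraries did not deviate together (correlations over genes of -0.10 and -0.20 for the 2 shared numbers), so the number alone does not pair them.

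By zone, the 2 members called in the pericentral bin became 12 with DESeq2, 10 with no filter, 8 with the replicate block and 0 to 11 without 1 library. The 4 of the middle bin became 11, 8, 10 and 0 to 14, and the 5 of the periportal bin 13, 12, 20 and 0 to 19. Of the fits without 1 library, the highest counts of the bins, 11, 14 and 19, and the 17 over all hepatocyte nuclei came without chow 3. The 7 of the diet by zone interaction became 3 with the score from Cyp2e1 and Cyp2f2, and 0 to 8 without 1 library. Fits without a MASH library take the lone one to vary like the others. Without chow 2 the count was 0 over all hepatocyte nuclei (5.67% of all genes) and 4 for the interaction (1.71%). In the pericentral, middle and periportal bins it was 0, 0 and 1 (3.56%, 3.46% and 7.18% of all genes).

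The sign of 7 members that were not called changed with the setting or without 1 library. With no scaling factor the log2 fold change was 0.13 for Ppargc1a, 0.038 for Slc27a2, 0.26 for Acadm and 0.23 for Acaa1a. With the replicate block it was -0.29 for Decr1 and -0.28 for Acot3. Thinned to 2000 UMIs per nucleus it was 0.0020 for Acadm, -0.045 for Decr1, 0.021 for Acaa1a and -0.10 for Acot3. Without nuclei with markers of another lineage it was 0.020 for Acadm and 0.031 for Acaa1a, without the nuclei with most UMIs 0.0023 for Acaa1a, and with a stricter filter 0.022 for Acadm. For Decr1, whose main value was 0.00, it was -0.041 with DESeq2 size factors, -0.041 with DESeq2, -0.035 with no filter, -0.0097 with at least 1000 UMIs and -0.0018 with a mitochondrial share under 5%. Without 1 library it ranged from -0.54 to 0.11 for Ppargc1a, -0.33 to 0.12 for Acadm, -0.35 to 0.16 for Decr1, -0.26 to 0.18 for Acaa1a, -0.45 to 0.95 for Acot3 and -0.20 to 0.91 for Vnn1. The cause of these changes was not tested. In simulated data of this design 4.94% of 2-fold differences between the diets were called.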
